A study of Mus musculus with 4 samples.

Results

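The interval chr1:75900001-76390000 (mm9), below 75.90 to 76.39 Mb, is 490 kb of sequence on the Epha4 side of the mouse locus that carries Epha4 and Pax3. It was defined by position alone. It starts at the right breakpoint of an inversion, InvF, and ends where 2 deletions, DelB and DelBs, both begin. It keeps its sequence and its own order on all 4 alleles and differs only in what lies next to it. In maps of 1000 bins of 10 kb it holds 49 bins. Its pairs are those of an interval bin with another interval bin or with a bin from 76.39 to 81.00 Mb, at least 20 kb apart on the allele. There were 23716 such pairs in WT and InvF, 15533 in DelB and 16513 in DelBs, of 498501 pairs at that separation in the whole map. Capture Hi-C, which enriches ligated fragment pairs of one chosen region, was done on distal limb buds of E11.5 mouse embryos. There was 1 library for each genotype, and the mutants were homozygous. WT carried no rearrangement. DelB lacked 76.39 to 78.06 Mb, a length of 1670 kb. DelBs lacked 76.39 to 77.86 Mb, a length of 1470 kb, and so kept a segment of 200 kb, 77.86 to 78.06 Mb, that DelB lost. InvF had 74.83 to 75.90 Mb, a length of 1070 kb, turned around, so that the interval had a new neighbour on its left and its WT neighbours on its right. All limits are exact only to a 10 kb bin. The number of embryos behind each library was not given in the sources used here, and a limb bud holds many cell types, so each map is an average over them.

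Mammalian chromosomes fold into topologically associating domains, stretches whose loci meet each other more often than they meet loci outside. Their borders often hold CTCF sites at which loop extrusion by cohesin is held up. Gene deserts beside developmental genes are known to carry enhancers that act over long distances, and a deletion that takes away a border can let such sequence meet a gene of the next domain. Epha4 encodes an ephrin receptor tyrosine kinase active in limb patterning and motor axon guidance. Pax3 encodes a transcription factor of muscle precursors and neural crest. In the GRCm38 annotation of RefSeq no protein-coding gene lies between Slc4a3, a bicarbonate exchanger gene, and Epha4, where 4 long noncoding RNAs, 4 pseudogenes and 1 miRNA are annotated. Nor does a protein-coding gene lie between Epha4 and Pax3. That annotation uses another build, so no gene was placed on a bin, and whether the interval itself is free of genes was not checked.

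Total depth was 5155274 counts for WT, 5543587 for DelB, 5832748 for DelBs and 6073471 for InvF. Mutant counts were scaled to WT over pairs from 20 kb to 2 Mb apart that lay on one side of, and outside, every rearrangement. Pairs within the interval were among them. The factors by which mutant counts were divided were 1.43, 1.5 and 1.24 in the order above. An interval bin took part in 2304 to 17706 counts in WT, with a median of 11975, against a median of 9225 over all bins of the map. Only 3 interval bins fell under 50% of that map median, namely those starting at 76.05, 76.23 and 76.32 Mb, and they were the thinnest measurements of the interval. With 1 library per genotype there is no replicate spread and no test of a difference between genotypes. Intervals in brackets below are exact 95% intervals and cover counting error only.

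In WT most contacts of the interval to its right fell in the stretch that both deletions remove. Contacts with sequence to its left were not analysed here. Of the contacts within the interval and to its right together, 31.2% were within it. Of the contacts that reached to the right, 85.6% fell in the stretch deleted in both, 76.39 to 77.86 Mb. The segment kept in DelBs took 4.50%, and the first 500 kb beyond both deletions, 78.06 to 78.56 Mb, took 4.57%. In counts these were 168174, 8848 and 8971.

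These contacts were above what distance gives, on the ratio of observed to expected counts. The expected count was the mean of the same library at the same distance along the allele, over pairs on one side of the rearrangements. It does not allow for the higher counts of interval bins, a WT median of 11975 against 9225 over the map. No value that allows for them was made for this stretch, so the size of the excess is uncertain. With the stretch deleted in both, the interval stood at 2.26 times expected (2.25 to 2.27) in WT and at 2.44 times (2.43 to 2.45) in InvF. The level climbed with distance into the stretch. It was 1.25 in the first 100 kb to the right of the interval and reached 5.52 (5.42 to 5.63) at 77.49 to 77.59 Mb, the highest of these WT windows. It was 3.91 at 77.89 to 77.99 Mb and 2.06 (1.98 to 2.14) at 77.99 to 78.09 Mb. The latter window holds the right end of the segment kept in DelBs, but the level dropped before that end. In windows of 50 kb it went from 5.22 (5.05 to 5.39) at 77.89 to 77.94 Mb to 2.53 (2.41 to 2.66) at 77.94 to 77.99 Mb. Both of these lie inside the segment. Across its right end, at 78.04 to 78.09 Mb, the level was 2.01 (1.89 to 2.12). These windows were picked after their values had been seen. At 77.49 to 77.59 Mb the farthest 70 kb of the interval, 75.90 to 75.97 Mb, stood at 8.38 times expected in WT and 10.9 times in InvF. The nearest 70 kb, 76.32 to 76.39 Mb, stood at 3.5 and 3.67.

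**Figure D1:**
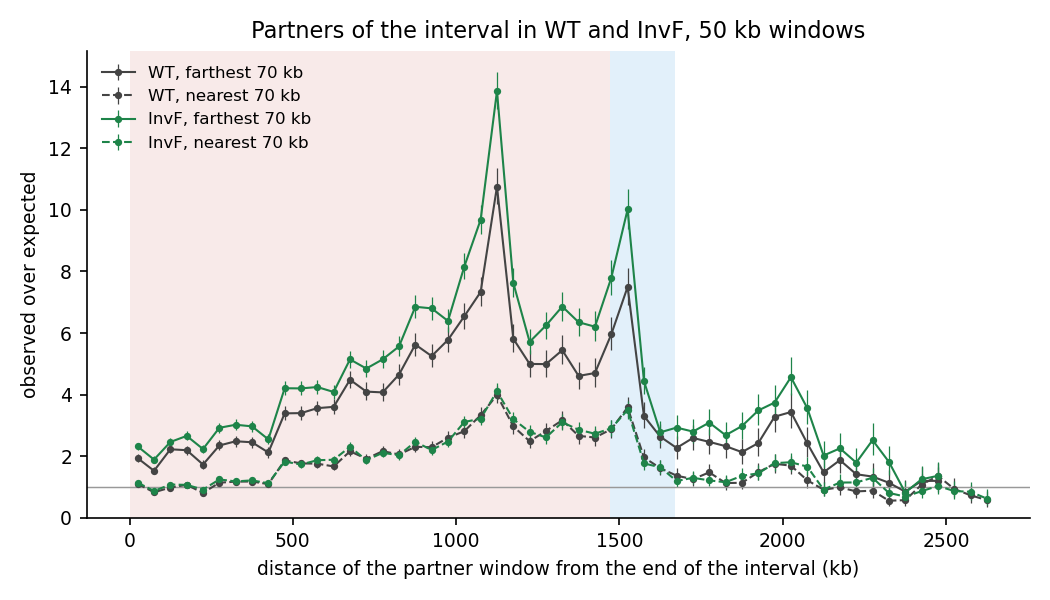
Observed over expected contacts (vertical axis, no unit) of the farthest 70 kb (solid lines) and the nearest 70 kb (broken lines) of the interval with partner windows of 50 kb, by distance of the window's centre from the end of the interval (horizontal axis, kb), in WT and InvF. Bars are exact 95% counting intervals, the pink band is the stretch deleted in both deletions and the blue band the segment kept in DelBs. In WT the farthest 70 kb peaked at 10.8 in the window 77.49 to 77.54 Mb, rose again to 7.5 at 77.89 to 77.94 Mb, inside the blue band, and to 3.44 at 78.39 to 78.44 Mb.

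In DelB the interval lost these partners and met sequence beyond the deletion in their place. Contacts with the first 500 kb beyond the deletion went from 8970 counts in WT to 110244 in DelB, 8.57 times WT after scaling (8.39 to 8.76). In InvF, whose order across these pairs is that of WT, the same ratio was 1.07 (1.04 to 1.09). The gain faded with distance. It was 3.57 times WT (3.44 to 3.72) in the next 500 kb, 78.56 to 79.06 Mb. It was 2.48 times (2.40 to 2.57) at 79.06 to 80.06 Mb and 1.77 times (1.70 to 1.85) at 80.06 to 81.00 Mb.

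The gain replaced less than the loss. Contacts of the DelB interval to the right came to 55.0% of the WT sum, and contacts within the interval and to its right together to 73.6%. These shares, and the summed gain below, carry the scaling in full. They were not computed with libraries scaled on the total of all counts, where DelB is divided by 1.08 and not 1.43. The smaller factor gives higher values. The summed gain of 84352 scaled counts equalled 47.7% of the 177022 WT counts that the interval had with the sequence lost in DelB. Of this gain, 80.5% lay in the first 500 kb beyond the deletion. The first 100 kb alone took 30%, and the window 78.36 to 78.46 Mb, 300 to 400 kb beyond, took 16.1%, against 10.8% for the window just before it.

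**Figure D2:**
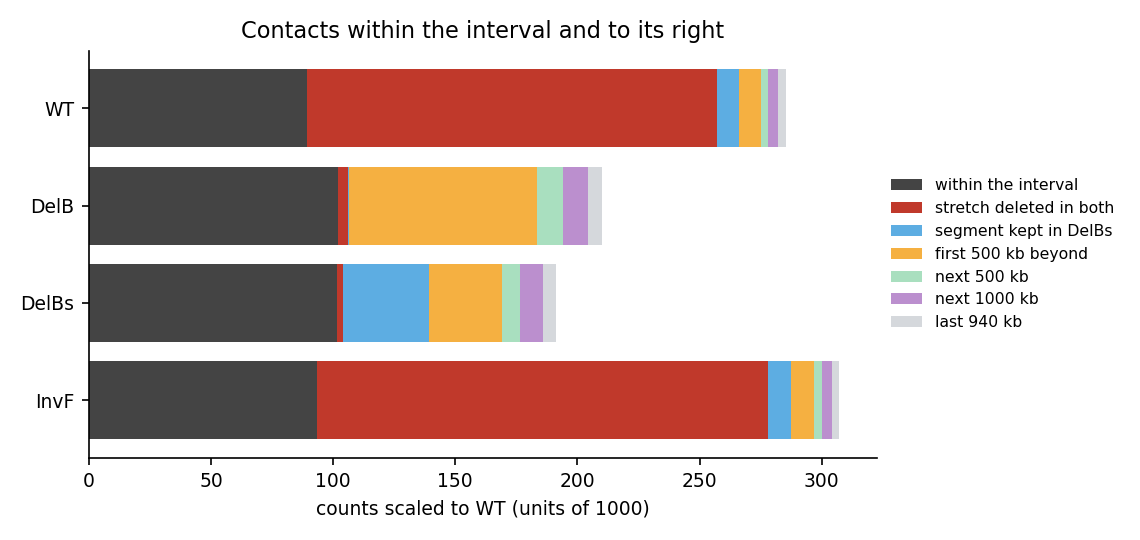
Contacts within the interval and to its right in each library, in units of 1000 counts scaled to WT (horizontal axis), stacked by the partner's zone, with 1 bar for each of the 4 libraries. The red share, the stretch deleted in both, fills most of the WT and InvF bars. The DelB and DelBs bars end at 73.6% and 67.0% of the WT bar, lengths that carry the scaling in full.

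Every bin of the interval took part in the DelB gain, and the ratio was highest at the interval's ends. Over the 49 bins the ratio to WT with the first 500 kb beyond the deletion ran from 6.81 to 13.1, with a median of 8.47. The lowest lower bound of any bin was 5.71. The highest ratios were at 76.37 to 76.38 Mb, next to the deletion, with 2097 counts against 112 in WT (13.1, 10.8 to 15.9), and at 76.35 to 76.36 Mb with 2012 against 122 (9.58 to 13.9 times). Between them in rank came a bin at the far end, 75.92 to 75.93 Mb, with 2402 against 137 (12.2, 10.3 to 14.6). The lowest ratios were in the middle, at 76.14 to 76.15 Mb with 2040 counts against 209 (6.81, 5.90 to 7.89), at 76.19 to 76.20 Mb with 2728 against 279 (6.82, 6.03 to 7.74) and at 76.16 to 76.17 Mb with 1975 against 198 (6.96, 6.01 to 8.09). In all, 7 bins had an interval wholly above the ratio of the whole interval. Of these, 5 form the run 76.34 to 76.39 Mb and the other 2 start at 75.91 and 75.92 Mb. The 5 bins wholly below lay between 76.01 and 76.20 Mb. By 70 kb part, the ratio was 9.30 (8.78 to 9.87) in the farthest, 7.56 (7.15 to 8.0) in the middle, 76.11 to 76.18 Mb, and 10.7 (10.0 to 11.3) in the nearest.

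Counted as contacts rather than as ratios, the DelB gain was spread over the whole interval. It took 20 of 49 bins to make up 50% of it, and single bins held from 0.397% to 3.22%. The highest was 76.36 to 76.37 Mb, followed by 75.91 to 75.92 Mb with 3.11% and 76.03 to 76.04 Mb with 2.85%. The 14 bins in the 140 kb next to the deletion held 28.3% of the gain, where a decay with distance alone would put 44.9% of their contacts. The 14 bins in the 140 kb farthest away held 30.5%, against 17.4% by decay. Coverage, a bin's total WT count, put 24.3% in the nearest and 29.9% in the farthest bins. Across the 49 bins, which share one library and one set of partners, the share of the gain followed coverage (Spearman's rho 0.84) and not distance to the deletion (rho 0.10).

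The distant end of the interval met the new partners more often than its distance on the DelB allele would give. Because interval bins have more coverage than the average bin, the expected level was here fitted on distance and a coverage factor of both bins. This form was added for single bins after the data had been seen. The factor is not the total WT count but was fitted in each library, for interval bins only from pairs within the interval. Those pairs stood at 1.22 times expected by distance in WT, 1.43 in DelB and DelBs and 1.29 in InvF. Their excess can enter the factor, to a degree that was not measured, so values of different libraries are not matched for it. On that scale the interval stood at 1.42 times expected (1.41 to 1.43) with the first 500 kb beyond the deletion, and at 1.60 with distance alone. With the same partners, at the longer WT distance, WT stood higher at 1.83 (1.79 to 1.86) and InvF at 1.92 (1.89 to 1.96). The 7 parts of 70 kb in DelB, from the farthest to the nearest, stood at 2.70, 2.15, 1.83, 1.45, 1.27, 1.06 and 0.853. The counting intervals of neighbouring parts do not overlap. By bin, the level fell from 3.18 (3.06 to 3.31) at 75.92 to 75.93 Mb to 0.778 (0.745 to 0.812) at 76.37 to 76.38 Mb, and 41 of 49 bins lay above 1. The level with these partners also went down towards the deletion's start in WT, at the longer WT distance, from 2.43 in the farthest part to 1.37 in the nearest, and in InvF from 2.83 to 1.35. The rank of bins by this ratio followed distance to the deletion with a rho of 0.995 in DelB, 0.939 in WT and 0.957 in InvF, over 49 bins that share partners.

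**Figure D3:**
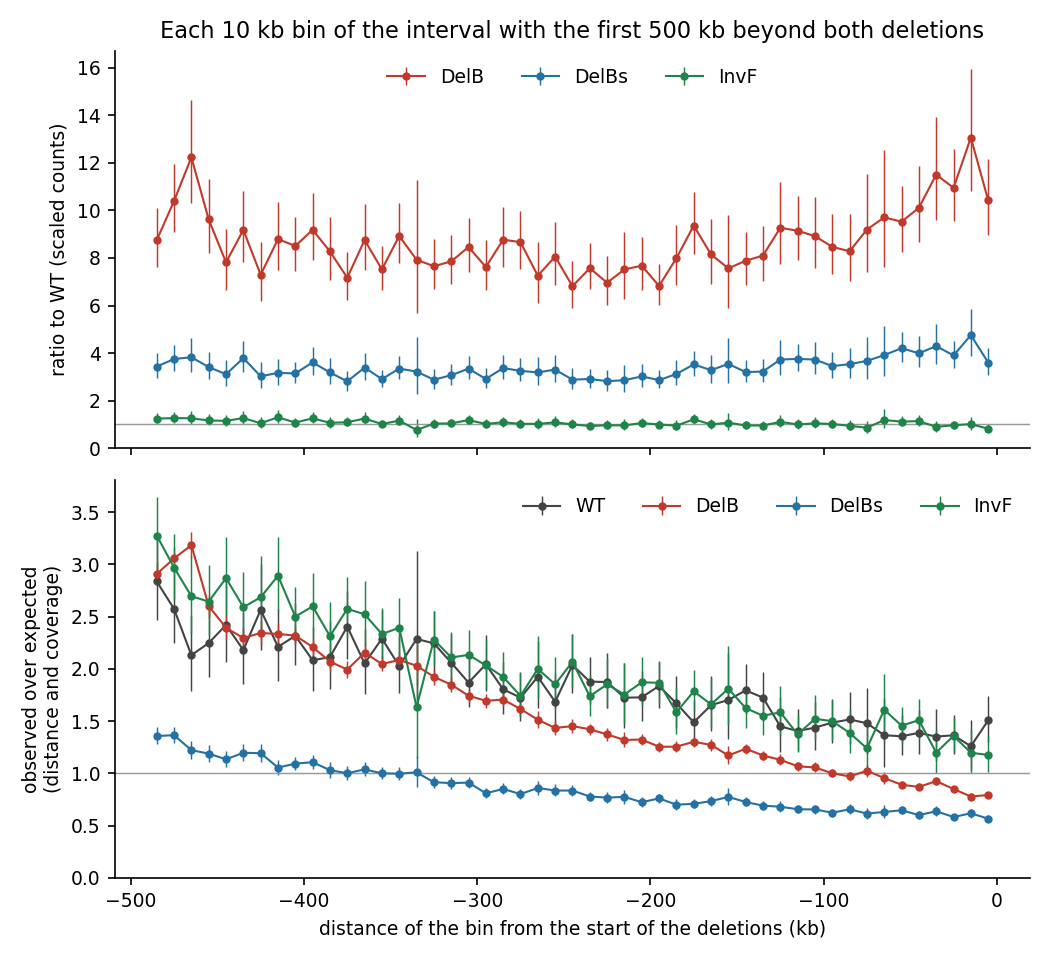
Values of the 49 interval bins with the first 500 kb beyond both deletions, by distance of the bin from the start of the deletions (horizontal axis, kb; the deletions begin at 0), with exact 95% counting intervals as bars. The upper panel gives the ratio to WT of scaled counts, which in DelB is lowest in the middle of the interval (6.81) and highest near 0 (13.1); the lower panel gives observed over expected counts with distance and coverage in the expected level, which falls towards the deletion in all 4 libraries, and in DelB from 3.18 to 0.778.

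Among the new DelB partners, those nearest to the junction had the largest ratios, and a stretch farther in had the largest excess over expected. By ratio to WT the top 100 kb window was 78.06 to 78.16 Mb, with 39478 counts against 2218 (12.4, 11.9 to 13.0). The lowest ratio within the first 1000 kb was 2.35 (2.14 to 2.57) at 78.86 to 78.96 Mb. By single bins the highest ratios were 14.8 at 78.07 to 78.08 Mb, 14.3 at 78.06 to 78.07 Mb and 13.7 at 78.10 to 78.11 Mb. By observed over expected with distance alone, the top window was 78.36 to 78.46 Mb at 2.34 (2.31 to 2.37). The top bins were all in that window, starting at 78.41 Mb (2.96), at 78.44 Mb (2.73) and at 78.38 Mb (2.68). With coverage in the expected level the window kept first place at 1.83 (1.80 to 1.85), and its neighbours on both sides stood at 1.19 and 1.18. The farthest 70 kb met it at 3.65 times expected (3.54 to 3.77), the nearest at 1.05 (1.01 to 1.09). From 78.56 Mb on the DelB interval met partners less often than expected, down to 0.263 (0.248 to 0.279) at 78.96 to 79.06 Mb, or 0.356 with coverage. The single pairs with the largest gain lay across the junction. The pair of 76.36 to 76.37 Mb with 78.06 to 78.07 Mb, 30 kb apart on the allele and 1700 kb apart in WT, went from 4 to 380 counts, 1.53 times expected (1.38 to 1.69). The next were 76.38 Mb with 78.07 Mb, from 2 to 353 counts, and 76.38 Mb with 78.08 Mb, from 3 to 265 counts, at 0.952 and 1.07 times expected.

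**Figure D4:**
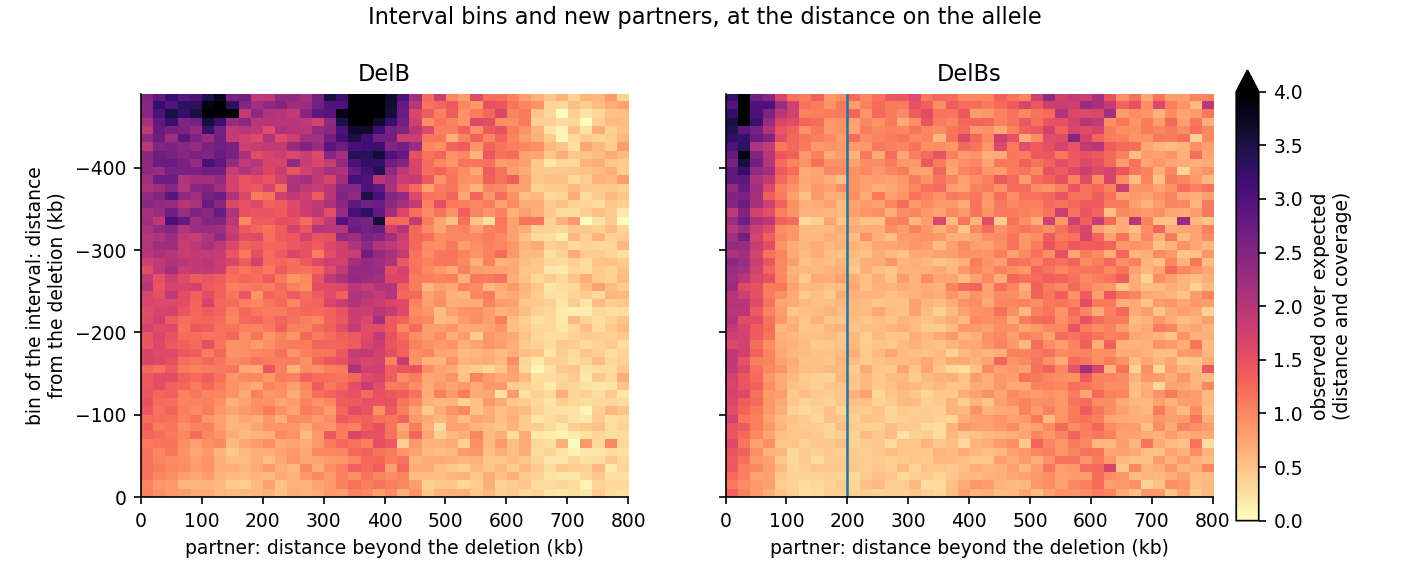
Observed over expected contacts (colour, distance and coverage in the expected level, darkest at 4 and above) of the 49 interval bins (vertical axis, distance from the deletion in kb, the bin nearest the deletion at the bottom) with partner windows of 20 kb beyond the deletion (horizontal axis, kb), in DelB and DelBs. In DelB dark bands run down from the far end of the interval next to the junction and at 300 to 400 kb beyond; in DelBs the dark area stays within the first 100 kb, and the blue line marks the end of the kept segment at 200 kb.

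In DelBs the interval also gained partners across its deletion, with the kept segment taking the largest part. Contacts with the segment, 77.86 to 78.06 Mb, went from 8834 to 52835 counts, 4.00 times WT (3.91 to 4.09). In InvF the ratio there was 1.08 (1.05 to 1.11). Contacts with 78.06 to 78.56 Mb went from 8971 to 44825 counts, 3.34 times WT (3.26 to 3.42). Farther out the ratios were 2.46 (2.37 to 2.57), 2.17 (2.09 to 2.24) and 1.73 (1.66 to 1.80) in the successive zones. The segment held 44.8% of the DelBs gain and the first 500 kb beyond it 35.5%. The gain of 59085.8 scaled counts equalled 35.1% of the WT counts with the lost stretch. Contacts to the right came to 45.8% of WT, and those within the interval and to its right together to 67.0%. These shares and the gain also carry the scaling in full. Scaling on the total of all counts divides DelBs by 1.13 and not 1.5, which gives higher values that were not computed.

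The interval bins next to the DelBs deletion had the highest ratios. They were 76.38 to 76.39 Mb with 2392 counts against 266 in WT over the first 500 kb beyond its own deletion (6.01, 5.29 to 6.85), 76.37 to 76.38 Mb with 1852 against 218 (5.68, 4.93 to 6.56) and 76.36 to 76.37 Mb with 2899 against 348 (5.57, 4.98 to 6.24). The lowest were 76.17 to 76.18 Mb (2.89, 2.49 to 3.38), 76.01 to 76.02 Mb (3.0, 2.67 to 3.37) and 76.02 to 76.03 Mb (3.13, 2.77 to 3.56). The median of the 49 bins was 3.51 and all were above 1. The bin 75.92 to 75.93 Mb, at the far end and the next to highest in DelB, stood at 3.9 (3.42 to 4.47) here. The 140 kb next to the deletion held 33.5% of the DelBs gain, the farthest 140 kb 27.8%, and 19 bins made up 50%. The largest shares were those of 76.36 to 76.37 Mb with 4.08%, 76.38 to 76.39 Mb with 3.42% and 76.33 to 76.34 Mb with 3.26%.

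Against its distance, the DelBs interval as a whole met the first 100 kb of the segment in excess and the rest of it below expected. A window farther out was in excess again. With distance and coverage in the expected level, the window 77.86 to 77.96 Mb stood at 1.38 (1.37 to 1.40), with 2.76 for the farthest 70 kb and 0.939 for the nearest. The next window, 77.96 to 78.06 Mb, stood at 0.585 (0.575 to 0.594), with 1.12 (1.08 to 1.17) for the farthest 70 kb and 0.383 for the nearest. The level then climbed again to 1.16 (1.14 to 1.18) at 78.36 to 78.46 Mb, the window that led in DelB and lay at a local high of WT and InvF. With distance alone that window was the highest of all DelBs windows at 1.60 (1.57 to 1.62). By ratio to WT the first window was highest at 4.17 (4.06 to 4.29) and 78.86 to 78.96 Mb lowest at 1.81 (1.65 to 1.99). Single bins with the highest observed over expected, by distance alone, were 77.89 to 77.90 Mb at 2.21, 77.92 to 77.93 Mb at 2.06 and 78.44 to 78.45 Mb at 1.93. By ratio the bin 78.98 to 78.99 Mb led at 9.35, but it rests on 28 counts against 2 in WT (2.36 to 81.0). The next were 77.86 to 77.87 Mb at 5.63 and 77.87 to 77.88 Mb at 5.32. The pairs with the largest gain again lay across the junction. They were 76.36 Mb with 77.86 Mb, from 13 to 425 counts, 76.38 Mb with 77.87 Mb, from 12 to 386, and 76.37 Mb with 77.86 Mb, from 19 to 307. Over the first 500 kb beyond its deletion, 77.86 to 78.36 Mb, DelBs stood at 1.11 times expected by distance and at 0.876 with coverage, so the side of 1 depends on that choice.

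The 2 deletions can be set side by side over partners that both kept. With 78.06 to 78.56 Mb the DelB interval had 2.57 times the scaled counts of DelBs (2.54 to 2.60). These partners lie 200 kb closer in DelB, which by decay alone gives 1.62 times. The ratio of the observed over expected values was 1.58 (1.56 to 1.60). This excess was not uniform along the interval. It fell part by part from 2.02 (1.96 to 2.08) in the farthest 70 kb through 1.92, 1.84, 1.68, 1.58 and 1.44 to 1.26 (1.22 to 1.30) in the nearest. The plain count ratio went down in the same order over the first 6 parts, through 2.67, 2.62, 2.60, 2.5, 2.49 and 2.45, and was 2.64 in the nearest. The value by decay alone, which divides the plain ratio, rose from 1.32 in the farthest part to 2.09 in the nearest. Most of the fall in the excess thus came from that value. With coverage in the expected level, the whole interval stood at 1.42 in DelB and 0.811 (0.804 to 0.819) in DelBs, against 1.83 in WT and 1.92 in InvF. The DelBs fit also used pairs of the kept segment with sequence to its right, so the DelB and DelBs fits rest on different pairs. The DelBs parts ran from 1.25 in the farthest to 0.607 in the nearest, and 14 of 49 bins lay above 1.

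A comparison with the lost WT partners needs no expected level, though it does not match the coverage of the partners. The first kilobases beyond a deletion on the mutant allele lie as far from each interval bin as the first lost kilobases did in WT. Over 500 kb the DelB interval met its new partners 1.07 times as often as it had met the lost ones (1.06 to 1.08). DelBs reached 0.746 times (0.739 to 0.754). In DelB the ratio fell from part to part, from 1.40 (1.36 to 1.44) in the farthest 70 kb through 1.26, 1.17, 1.06, 1.01 and 0.926 to 0.847 (0.828 to 0.866) in the nearest. In DelBs it fell from 0.914 (0.888 to 0.940) to 0.682 in the sixth part and 0.689 in the nearest.

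By distance, the new DelB partners stood between 0.944 and 1.38 times the lost ones up to 400 kb, and lower beyond. It was 1.31 (1.29 to 1.34) in the first 100 kb, 0.954 and 0.944 in the next windows and 1.38 (1.35 to 1.41) at 300 to 400 kb, the window 78.36 to 78.46 Mb. It dropped to 0.623 at 400 to 500 kb and to 0.0745 (0.0700 to 0.0793) at 900 to 1000 kb, where WT had 10395 counts and DelB 1110. The mean WT coverage of the partner bins was 4177.6 in that new window and 12007.5 in the lost one. At 300 to 400 kb it was 10689.4 and 10456. How much of the drop goes with coverage was not tested. In DelBs the first 100 kb reached 1.22 (1.2 to 1.24) and the next 100 kb, still in the kept segment, 0.599 (0.586 to 0.612). A second rise to 0.636 (0.619 to 0.652) came at 500 to 600 kb, again the window 78.36 to 78.46 Mb. At 900 to 1000 kb the ratio was 0.108. These ratios carry the scaling in full. With libraries scaled on all counts, a total that contains the deleted pairs, DelB stood at 1.43 and DelBs at 0.987, the nearest DelB part at 1.13 and the farthest DelBs part at 1.21, so that whether new partners reach the lost level turned with that choice. The order of the parts does not depend on it, since 1 factor multiplies them all.

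**Figure D5:**
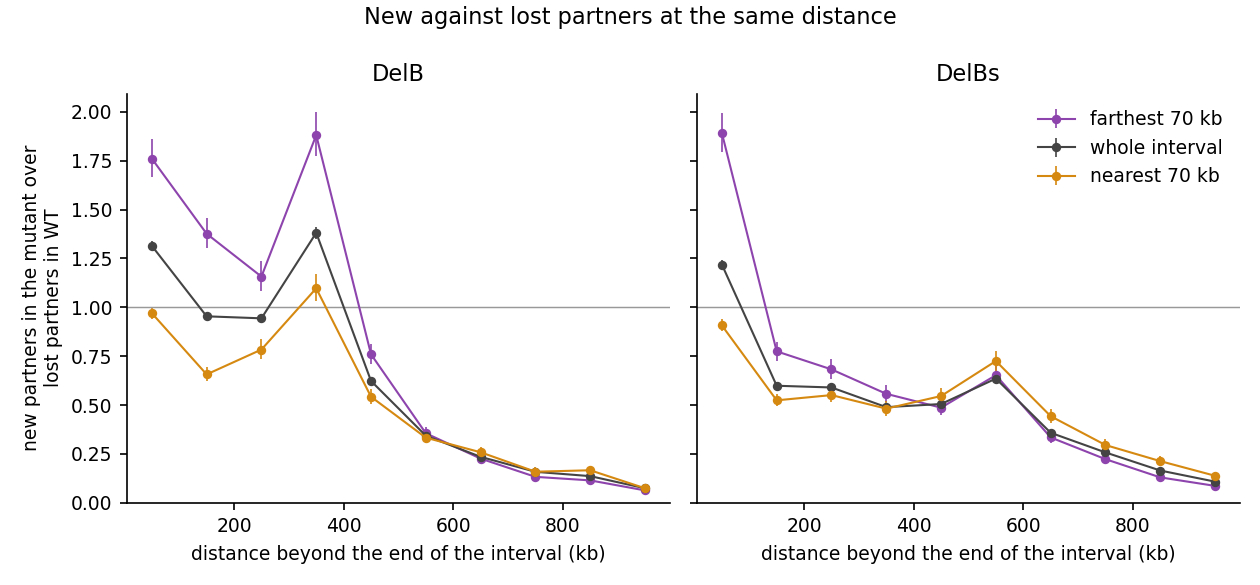
Contacts with new partners in the mutant over contacts of the same interval bins with the lost partners in WT at equal distance (vertical axis, ratio of scaled counts), by distance beyond the end of the interval in windows of 100 kb (horizontal axis, kb), for DelB and DelBs. Points are the whole interval, its farthest 70 kb and its nearest 70 kb, with exact 95% counting intervals; the farthest 70 kb reached 1.76 in the first DelB window and 1.88 at 300 to 400 kb, and 1.89 in the first DelBs window but 0.775 in the next.

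InvF left the right-hand partners of the interval in place, and the ratio of its contacts with them to WT lay between 0.909 and 1.10 by zone. The ratio to WT with the stretch deleted in the other alleles was 1.10 (1.09 to 1.10). With the kept segment it was 1.08, with the first 500 kb beyond 1.07, with the next 500 kb 1.02 (0.969 to 1.07) and with the next 1000 kb 0.998 (0.958 to 1.04). At 80.06 to 81.00 Mb it was 0.909 (0.867 to 0.953). Of the contacts within the interval and to its right, 30.4% were within it, against 31.2% in WT.

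The highest InvF ratios were at the breakpoint end of the interval. With the stretch 76.39 to 77.86 Mb, the ratio of single bins ran from 1.01 to 1.37. The highest, 75.90 to 75.91 Mb, directly at the inversion's right breakpoint, had 6064 counts against 3572 in WT (1.37, 1.31 to 1.42). In the farthest 70 kb of the interval the ratio was 1.25 (1.23 to 1.27), then 1.11, 1.09, 1.06, 1.07 and 1.06 in the following parts, and 1.05 (1.03 to 1.06) in the nearest. Of the 7 bins in that farthest part, 6 had an interval wholly above the ratio of the whole interval, and no other bin did. Its partners in the first 500 kb beyond both deletions showed the same, 1.2 (1.12 to 1.29) in the farthest part against 1.01 (0.929 to 1.09) in the nearest. With the same scaling, contacts within untouched stretches to the left and right of the locus, over the shorter distances of 20 to 480 kb, stood at 1.01 and 0.964 in InvF, and between 0.960 and 1.02 in single bands of distance. How far 2 libraries of 1 genotype would differ was not measured.

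Contacts within the interval were higher than in WT in all 3 mutants. The ratio to WT over 20 to 480 kb was 1.15 (1.14 to 1.16) in DelB, 1.14 (1.13 to 1.15) in DelBs and 1.05 (1.04 to 1.06) in InvF. Over the same distances the untouched left stretch stood at 0.970, 0.990 and 1.01 and the untouched right stretch at 0.971, 0.934 and 0.964. The ratio was higher at longer distances. In DelB it was 1.11 at 20 to 100 kb, 1.19 at 110 to 250 kb and 1.25 (1.22 to 1.28) at 260 to 480 kb. DelBs gave 1.11, 1.16 and 1.26 (1.22 to 1.29), and InvF 1.02, 1.08 and 1.15 (1.12 to 1.18). The untouched stretches also went up with distance in both deletions, over a smaller range. In DelB they went from 0.951 through 0.979 to 1.01 on the left and from 0.958 through 0.970 to 1.01 on the right. In DelBs they went from 0.972 through 0.993 to 1.03 on the left and from 0.914 through 0.936 to 0.978 on the right. In InvF they were 0.993, 1.01 and 1.02 on the left and 0.962, 0.960 and 0.973 on the right. The untouched stretches set the scaling together with the pairs within the interval itself. The value of the interval is therefore relative to a sum that contains its own counts.

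Features past a fixed size were then counted against the whole map. A feature was a 10 kb interval bin with a 100 kb partner window, neither of them deleted, with at least 10 WT counts, and a difference of at least 2-fold after scaling was called. In DelB 499 of 969 interval features were called higher, where 6.55% of all features of the map were, and 4 were called lower, against 3.06%. All 499 lay among the 724 features beyond the deletion, and none of the 245 features within the interval was called. In DelBs 526 of 1071 were higher, against 6.59% in the map, and 3 lower, against 3.67%. Every one of the 49 bins had at least 1 higher feature in each deletion. In InvF 2 of 1758 were higher, against 4.44%, and 74 lower, against 12.5%. The maps' own calls include the interval's, and features of one bin share counts.

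The authors' deposited table of differences between WT and each mutant holds a score with no stated unit or direction, at 0 for most pairs. Each interval pair above 0 (1249 in DelB, 904 in DelBs, 274 in InvF) also had more scaled raw counts in the mutant than in WT. For DelB, the authors' deposited table gave 1249 of 5684 interval pairs a value above 0, 22.0%, against 1.44% of all its pairs. For DelBs, the authors' deposited table gave 904 of 6664, 13.6%, against 1.42%. For InvF, the authors' deposited table gave 274 of 13867, 1.98%, against 1.94%, with 134 of them in the farthest 70 kb of the interval and 14 in the nearest. In the same 2 parts, the authors' deposited table had 222 and 139 pairs above 0 for DelB, and 192 and 102 for DelBs. The values by part are counts and not shares, since the number of pairs in each part was not taken. Below 0, the authors' deposited table had 13 interval pairs for InvF, of 3994 among all its pairs. For DelB and DelBs it had 0 interval pairs below 0, of 10 and 23.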

How the data were processed

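Per the labels, cells of distal limb buds were dissociated and fixed with formaldehyde, and libraries were enriched with custom capture probes and amplified by PCR. Per the submitters' processing notes, reads were aligned with Bowtie2 2.2.6 to mm9; per the file names, reads had a mapping quality of at least 30 and were binned at 10 kb. The treatment of duplicate reads is not given here. The authors deposited raw counts per bin pair, which were used throughout, a KR-balanced signal, used as an alternative, and difference scores between WT and each mutant, whose computation is not stated.

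The limits of the rearrangements were read from these maps in an earlier analysis, and the interval, its lists and measures were chosen with earlier results of these data known. Counts were summed over bin pairs, with mutant pairs placed at their distance on the allele. Scaling used pairs outside every rearrangement, up to 2 Mb apart. Expected counts were library means by distance, up to 3 Mb, or were fitted with a coverage factor for each bin. That factor came, in each library, from pairs on one side of the rearrangements. Ratio intervals are exact conditional binomial and observed over expected intervals exact Poisson, at 95%. Bins were named by a rule: the 3 highest and lowest by ratio, the 3 with the largest gain, the top partners and pairs, and fixed 70 kb parts and zones. Alternatives were scaling on totals, balanced values, coverage, thin bins, pair distance, fold and count minimum. The work was done in Python 3.11.15 (numpy 2.4.6, scipy 1.17.1), with figures from matplotlib 3.10.9. On simulated DelB maps the coverage form returned 2.03 and 1.00 for true excesses of 2 and 1, and distance alone 2.84 and 1.21. Apart from the planted excess those maps were built from decay and bin coverage alone, the form that is fitted, and held no domains. They cannot show how the coverage form does in real maps, where contacts within the interval exceed the level by distance. In simulated InvF maps, features were changed in the untouched left stretch and not in the interval. There 49 of 50 features lowered to 0.25 and 48 of 50 raised 4-fold were called. Of unchanged features in that stretch, 33 of 10325 were called. These unchanged ones had at least 30 WT counts, where calling in the real maps used at least 10, so thinner features were not covered.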

Additional observations from a re-analysis of the deposited data

Results flagged for a closer look

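At the far end of the map, 80.06 to 81.00 Mb, the interval's contacts were above WT in both deletions, 1.77 times in DelB and 1.73 times in DelBs, and below WT in InvF, 0.909 times. The counts were 8366, 8521 and 3720 against 3290 in WT. The difference between the mutants was not tested. In absolute distance the partners lie 1670 kb closer to the interval in DelB and 1470 kb closer in DelBs, and equally far in InvF.

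Counts remained between the interval and sequence that the mutants lack. With 76.39 to 77.86 Mb, which no homozygous deletion allele holds, DelB had 5871 counts, 2.44% of WT after scaling (2.37% to 2.5%), and DelBs 3817 counts, 1.52% (1.47% to 1.57%). In DelB the segment 77.86 to 78.06 Mb gave the same share, 2.44% (2.17% to 2.73%). Inside the deletion as a whole, 2.32% of the WT level remained in DelB and 1.23% in DelBs. The origin of these counts was not tested.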

How the results depend on the processing

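No paired analysis was possible because each genotype had 1 library, without replicate numbers. Of 68 alternatives to the values on the whole interval, 28 left the value within its counting interval (or the count within 1.5 times), 38 moved it and 2 turned its direction; of 81 for single parts, chosen after seeing the data, the numbers were 33, 44 and 4.

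The DelBs level over its first 500 kb, 1.11 times expected, fell to 0.815 with balanced values and to 0.876 with coverage in the expected level, and to 0.836 and 0.882 in the middle part, from 1.14. Scaled on all counts, new over lost partners turned from 0.847 to 1.13 in the nearest DelB part and from 0.914 to 1.21 in the farthest DelBs part, and moved to 1.43 in DelB and 0.987 in DelBs. The same scaling gave ratios to WT within the interval of 1.53, 1.51 and 1.11 (DelB, DelBs, InvF), of 11.4, 4.42 and 1.12 with the first 500 kb beyond, of 5.29 for DelBs with the segment, of 1.16 for InvF with the lost stretch, a DelBs share of the gain next to the deletion of 32.8%, and 4 higher InvF features.

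Balanced values gave 1.17 within the interval in DelBs, 7.91 in DelB with the first 500 kb, 3.78 in DelBs with the segment, 1.11 in InvF with the lost stretch, 1.19 observed over expected in DelB, 1.06 and 0.726 for new over lost partners, gain shares next to the deletion of 31.9% and 36.8%, and 6 higher InvF features. Pairs at least 50 kb apart gave 1.18, 1.16 and 1.07 within the interval. Without thin bins observed over expected was 1.52 and 1.04, new over lost 1.11 and 0.757, and the DelB gain share 27.9%. Coverage in the expected level gave 1.42 in DelB, and leaving pairs within the interval out of it 1.62 and 1.12. Removing the residual share inside the deletion moved new over lost in DelB to 1.09. With at least 30 WT counts, which left fewer features to test, DelB had 153 higher ones of 398, DelBs 291 of 536 and InvF 0 of 1224, and at a fold of 1.5 InvF had 47 of 1758. Shares over all features of the map were not computed for any alternative, so these feature counts cannot be set against the map. The cause of the changes under the alternatives was not tested.

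Depth limits single bins and distant partners: the thinnest bin, 76.05 to 76.06 Mb, had 39 WT counts with the first 500 kb beyond both deletions, and its DelB ratio of 7.92 spans 5.71 to 11.3. With 1 library per genotype, differences between embryos or library preparations are inside every ratio.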
